A study of Mus musculus with 6 samples.

Results

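The regions described here were mouse cDNA clones of the FANTOM3 collection that lay inside a long gene and were counted at a small part of that gene's level. A clone was taken when its position covered the same number of bases as its length, so that it was a single block, when it lay wholly inside the span of exactly 1 gene row on its own strand, and when that host gene was spliced (span above length), spanned at least 100 kb and had a mean of at least 1 RPKM (reads per kilobase of row length, scaled to the library's total) over the 6 libraries. The clone itself had a mean RPKM under 0.1 of the host's and at least 30 reads over the 6 libraries. These values chose the clones, so the low level of the clones against their hosts is a description and not a result. Of 33353 clone rows in a table of 56826 rows, 23279 were single blocks, 14360 of them lay inside exactly 1 gene row, 7344 of these had a spliced host of at least 100 kb, and 4541 met every criterion, in 1296 host genes. They are called intron-like clones by this rule alone: no exon annotation was used, so a clone may hold an exon. Of the 1296 hosts, 1287 matched a gene of the RefSeq table, which lists 1278 as protein-coding and 8 as lncRNA.

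The libraries were made from brain RNA of adult male C57BL/6 mice, 8 to 9 weeks old, after removal of ribosomal RNA. In the ischemia/reperfusion group (3 libraries) a coated filament closed the right middle cerebral artery for 1 h and was then withdrawn, and reperfusion lasted 6 h, a model of transient stroke. In the sham group (3 libraries) the same operation was done without the filament. All mice had chloral hydrate anesthesia, and no side or region of the brain is named in the labels. Whether each library is a separate animal is not stated, so every p-value rests on the spread among these 6 samples alone, and that spread may be technical. The libraries held 45425867 to 49686109 counts. Markers of neurons, astrocytes, oligodendrocytes, microglia and endothelium were all detected, as the labelled tissue requires. Summed neuronal markers ranged from 5063 to 6002 CPM (counts scaled to the same library total) in ischemia/reperfusion and from 5575 to 5700 CPM in sham. Oligodendrocyte markers ranged from 3829 to 9902 CPM and choroid plexus markers from 165 to 1665 CPM in ischemia/reperfusion, against 4770 to 5865 CPM and 848 to 1091 CPM in sham.

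An intron is copied with its gene into the primary transcript and is removed by splicing, after which most intron RNA is degraded in the nucleus. RNA libraries depleted of ribosomal RNA, without selection for poly(A) tails, keep unspliced transcripts and excised introns, and long genes take a polymerase a long time to copy. Brain-expressed genes include many of the longest genes of the mouse, among them those for synaptic adhesion molecules, ion channels, scaffolds and splicing regulators. A region inside a gene may also be an RNA of its own, with its own start, a host for a small RNA, or a primed stretch of an unspliced transcript that was cloned as cDNA.

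Some of the clones cover annotated features inside their host, and these are shown because they mark the clones that are more than plain intron by annotation. RefSeq places a start of the host inside 11 of the 4541 clones, 7 of them with the whole window of 300 bases around the start. The windows below were taken from RefSeq (GRCm38.p6, the build called mm10 in the submitters' processing notes) and hold 250 bases before the start in lower case and the 50 bases from the start on in capitals. They belong to clone fantom3_5830465B20 in Pde4b (chr4:102587308-102587607, plus strand), fantom3_B930085F22 in Mgat4c (chr10:102374187-102374486, plus strand), fantom3_7120489I04 in Mllt3 (chr4:87806274-87806573, minus strand) and fantom3_C130076I15 in Rabgap1 (chr2:37452004-37452303, plus strand).
Pde4b start: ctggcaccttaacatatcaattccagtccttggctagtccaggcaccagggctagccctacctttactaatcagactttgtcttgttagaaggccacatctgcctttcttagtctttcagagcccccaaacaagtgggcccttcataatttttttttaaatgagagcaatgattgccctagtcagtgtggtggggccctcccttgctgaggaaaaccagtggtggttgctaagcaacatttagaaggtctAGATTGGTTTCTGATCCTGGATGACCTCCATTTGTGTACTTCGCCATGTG
Mgat4c start: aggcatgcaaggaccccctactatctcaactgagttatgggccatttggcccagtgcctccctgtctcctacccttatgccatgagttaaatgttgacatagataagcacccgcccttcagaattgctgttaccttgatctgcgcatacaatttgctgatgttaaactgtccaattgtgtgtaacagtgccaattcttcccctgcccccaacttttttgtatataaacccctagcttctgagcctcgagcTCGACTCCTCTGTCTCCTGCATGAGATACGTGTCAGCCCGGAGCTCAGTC
Mllt3 start: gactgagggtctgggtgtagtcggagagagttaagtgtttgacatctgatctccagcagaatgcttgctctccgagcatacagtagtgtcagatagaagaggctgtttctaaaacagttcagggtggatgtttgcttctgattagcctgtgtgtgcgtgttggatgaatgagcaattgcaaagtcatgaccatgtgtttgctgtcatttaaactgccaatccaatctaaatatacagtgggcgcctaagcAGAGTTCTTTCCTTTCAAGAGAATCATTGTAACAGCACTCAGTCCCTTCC
Rabgap1 start: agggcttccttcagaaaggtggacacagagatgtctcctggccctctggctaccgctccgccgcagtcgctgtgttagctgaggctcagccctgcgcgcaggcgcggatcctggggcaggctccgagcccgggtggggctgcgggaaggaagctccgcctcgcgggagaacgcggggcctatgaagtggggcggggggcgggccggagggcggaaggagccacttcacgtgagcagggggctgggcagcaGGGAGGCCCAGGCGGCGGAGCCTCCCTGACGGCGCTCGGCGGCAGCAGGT

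The Rabgap1 window had 27 CG pairs and 72.0% G or C, while the Pde4b window had 1 CG pair and 46.7%. The motif TATAAA, searched on both strands, was in 2 of the 11 windows, those of Mgat4c and Lrrc1, against 118 of 1482 start windows of all hosts (7.96%) and 4473 of 32851 start windows of the whole RefSeq table (13.6%). The median number of CG pairs was 6 in the 11 windows and 19 in the start windows of the hosts. A second annotated feature was the hairpin of miR-6402, which lies in clone fantom3_6430705N15 inside Elavl2, a gene for a neuronal RNA-binding protein (hairpin at chr4:91373284-91373363, minus strand). Its mature sequence from RefSeq is given with the seed, bases 2 to 8, in capitals.
mmu-miR-6402: gAGCAGUUuucccaggaacccgc

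The 4541 clones were 168 to 42746 bases long, with a median of 2341 bases, and lay 0.502 to 2248 kb from the start of their host, with a median of 117 kb. They formed 4210 separate loci, since 618 clones overlapped another of the set and so count some reads again. A host held between 1 and 32 of the clones, with a median of 2. There were 406 hosts with a single clone and 64 hosts with 10 or more, which held 1001 of the clones. The hosts had a median span of 291 kb and the clones a median level of 0.261 RPKM. The level of a clone had a median of 2.63% of its host's level per length. The summed count had a median of 160 reads over the 6 libraries, so that a single clone rested on few reads. A gene row on the other strand overlapped 92 of the clones. The library kit named in the labels is not described as strand-specific and no source used here gives the strand setting of the counting, so reads from the 2 strands at these 92 clones cannot be told apart.

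After ischemia and reperfusion the intron-like clones of long genes were, as a set, at a higher level than in sham. The median of their host genes differed less between the groups, while single hosts moved in both directions. The clones together held 0.440%, 0.538% and 0.512% of all counts in the 3 ischemia/reperfusion libraries, against 0.399%, 0.368% and 0.397% in the 3 sham libraries. The means were 0.497% ± 0.0505 in ischemia/reperfusion and 0.388% ± 0.0173 in sham (SD, n = 3 each), and the groups did not overlap. The median clone had 0.262, 0.325 and 0.310 RPKM in the ischemia/reperfusion libraries, against 0.223, 0.199 and 0.217 RPKM in the sham libraries. Ischemia/reperfusion replicate 1 was the lowest of its group in both measures. The median host had 9.04, 9.39 and 9.27 RPKM in the ischemia/reperfusion libraries, against 8.96, 8.51 and 8.64 RPKM in the sham libraries. In RPKM the hosts thus did not overlap either, with means of 9.23 in ischemia/reperfusion and 8.70 in sham. RPKM rests on library totals. In edgeR, which scales libraries otherwise, the median log2 fold change of the hosts was -0.0024.

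The clone's level in percent of its host's level does not depend on how libraries are scaled. Its median over the clones was 2.62%, 3.01% and 2.95% in the ischemia/reperfusion libraries, against 2.12%, 2.05% and 2.16% in the sham libraries. That gave 2.86% ± 0.207 in ischemia/reperfusion and 2.11% ± 0.0565 in sham (SD, n = 3 each), with every ischemia/reperfusion library above every sham library. Clones chosen in the same way in hosts under 100 kb (2623 clones in 1747 hosts) had medians of 2.96%, 3.08% and 2.87% in the ischemia/reperfusion libraries, against 2.19%, 2.07% and 2.21% in the sham libraries. Clones of shorter hosts thus also had higher ratios in ischemia/reperfusion. The plot of ratios by library shows both sets.

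**Figure D1:**
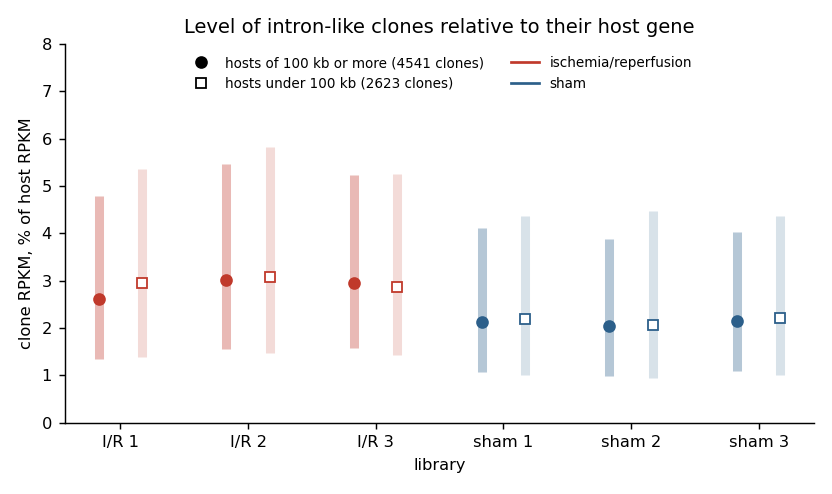
Clone RPKM in percent of host RPKM (linear axis) in each library, with the median over clones as a point and the middle 50% of clones as a bar, for 4541 clones in hosts of at least 100 kb (filled) and 2623 clones in shorter hosts (open). For the long hosts the medians lie between 2.62% and 3.01% in the 3 ischemia/reperfusion libraries and between 2.05% and 2.16% in the 3 sham libraries.

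Each clone was also compared between the groups, with edgeR's quasi-likelihood test over all 43486 rows with at least 30 reads, so that every one of the 4541 clones was tested. The log2 fold change was positive for 3607 of 4541 clones (79.4%), with a median of 0.39, a 1.31-fold higher level in ischemia/reperfusion. Of all rows tested 53.5% were positive, and of the hosts 49.5%. The median was -0.0024 over the 1296 hosts, 0.03 over all rows tested and -0.04 over all 17459 gene rows. At an unadjusted p below 0.05, 760 clones (16.7%) were higher and 17 (0.374%) lower, against 8.38% and 6.74% of all rows tested. Of the 1296 hosts, 106 (8.18%) were higher and 103 (7.95%) lower. For 899 clones (19.8%) all 3 ischemia/reperfusion libraries lay above all 3 sham libraries and for 73 (1.61%) below, against 10.6% of all rows in each direction. No clone passed an adjusted p of 0.05 in edgeR's quasi-likelihood test (Benjamini-Hochberg over all rows), where 0.0023% of rows were called higher and 0% lower, and the smallest adjusted p of a clone was 0.123. DESeq2 called 33 clones higher and 0 lower of the 2095 for which it gave an adjusted p, against 1.04% and 0.738% of all rows with one, and had 579 higher and 12 lower at an unadjusted p below 0.05, against 6.85% and 6.37% of rows. With limma-voom 0 clones passed the adjusted threshold, with 698 higher and 22 lower at the unadjusted p, against 7.84% and 6.95% of rows.

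Single libraries decided how many clones passed, and the share of all rows that passed moved as well. Without ischemia/reperfusion replicate 1, 105 of the 4541 clones passed the adjusted threshold of edgeR and 1033 were higher at an unadjusted p below 0.05, against 2.43% and 10.6% of all rows. Without ischemia/reperfusion replicate 2, 1 clone passed the adjusted threshold, against 0.11% of all rows. At the unadjusted p 449 clones were then higher and 29 lower, against 7.62% and 7.28% of all rows. In both cases the share of clones past the adjusted threshold was below that of all rows. The share of clones higher at the unadjusted p was above it. Without ischemia/reperfusion replicate 3, 506 were higher, against 5.88% of all rows. Without sham replicate 3, 9 were lower, against 5.15% of all rows. The median log2 fold change stayed between 0.31 and 0.46 when any single library was left out. The authors' deposited table was made with a test that no source used here names. At a q-value under 0.05 it listed 671 clones (14.8%) as higher and 8 (0.176%) as lower. That compares with 14.7% and 9.77% of all its rows. Of the 1296 hosts the same table listed 477 (36.8%) as higher and 276 (21.3%) as lower.

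**Figure D2:**
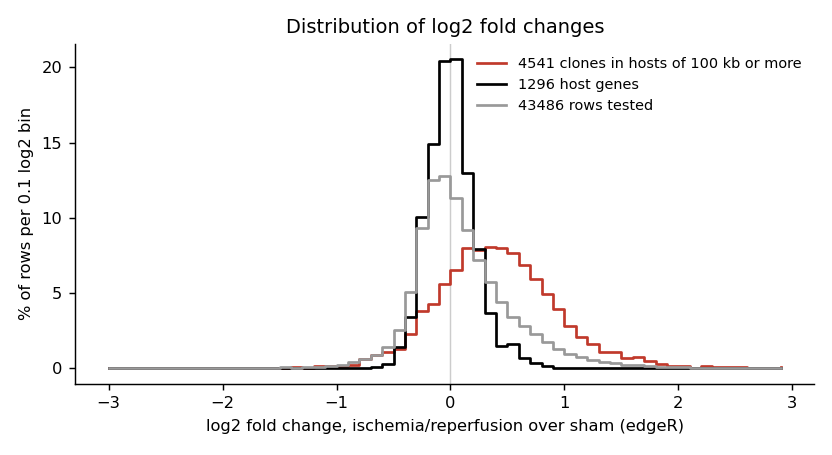
Share of rows per bin of 0.1 on the log2 scale, against the log2 fold change of ischemia/reperfusion over sham from edgeR (values past 3 in either direction are drawn in the end bins), for the intron-like clones, their host genes and all rows tested. The clones centre on 0.39 and spread widely, the hosts centre on -0.0024 and all rows on 0.03.

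The direction of the clone was also set beside that of its host. Both log2 fold changes were positive for 1791 clones, the clone's was positive and the host's negative for 1816, the reverse held for 332, and both were negative for 602. Spearman's correlation between the clone's and the host's log2 fold change was 0.22 over the 4541 clones, which share hosts, libraries and depth. In the fit of the clone-to-host ratio itself (limma on log2 of clone over host reads per base, with 0.5 reads added to each, over 16399 pairs of a clone and the gene around it) the log2 difference had a median of 0.40 over the clones and was positive for 3636 of 4541 (80.1%). Over all pairs the median was 0.11 and 64.1% were positive. At an unadjusted p below 0.05 the ratio was higher for 869 clones (19.1%) and lower for 26 (0.573%). That compares with 13.4% and 4.54% of all pairs. The ratio of 1017 clones (22.4%) was above all sham libraries in all 3 ischemia/reperfusion libraries and that of 49 (1.08%) below, against 16.7% and 6.43% of all pairs. No clone passed the adjusted threshold of 0.05 in limma, where 0% of pairs did, and the smallest adjusted p was 0.109. An edgeR fit with the host count as offset called 0 clones as well, with 896 higher and 24 lower at an unadjusted p below 0.05, against 13.7% and 4.48% of pairs. Without ischemia/reperfusion replicate 1 the ratio was lower for 44 clones, against 7.67% of all pairs. Without ischemia/reperfusion replicate 3 it was higher for 570 and lower for 15, against 9.44% and 3.07% of all pairs. It was lower for 16 clones without sham replicate 1 and for 15 without sham replicate 3, against 2.55% and 2.81% of all pairs.

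Several long RNAs known to stay in the nucleus were also higher in the same libraries. Of 9 listed nuclear RNAs 8 had a log2 fold change above 0, none was at 0 counts, and their summed level was 10442 to 10931 CPM in ischemia/reperfusion and 6948 to 8587 CPM in sham. Malat1, an abundant nuclear speckle RNA that makes up most of that sum, had 8608, 7521 and 7804 CPM in the ischemia/reperfusion libraries, against 5012, 6415 and 5940 CPM in the sham libraries. Meg3, an imprinted nuclear lncRNA, had 851, 1175 and 1192 CPM in the ischemia/reperfusion libraries, against 607, 678 and 649 CPM in the sham libraries. Rian and Peg13, also in the list, had log2 fold changes of 0.02 and -0.09. None of the 9 reached the adjusted threshold of edgeR (smallest adjusted p 0.108), and 7 had an unadjusted p below 0.05. The part of these RNAs, and of the nuclear RNA content of the samples, in the result for the clones was not tested.

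Some lists of marker genes also differed between the groups in their summed level. Astrocyte markers had a log2 fold change above 0 in 2 of 10 genes, with 4777 to 5275 CPM in ischemia/reperfusion and 5702 to 5887 CPM in sham. Microglia markers were above 0 in 8 of 10 genes, with 273 to 304 CPM in ischemia/reperfusion and 256 to 270.1 CPM in sham. Neither of these groups overlapped. Immediate early genes, which neurons switch on quickly after stimulation, were above 0 in 15 of 16, with 748 to 1077 CPM in ischemia/reperfusion and 271 to 559 CPM in sham, and did not overlap either. Markers of the striatum were above 0 in 8 of 8, with 202 to 672 CPM in ischemia/reperfusion and 191 to 413 CPM in sham, which overlapped. No gene of these 4 lists was at 0 counts or passed the adjusted threshold of edgeR, and their part in the result for the clones was not tested. In bulk tissue fewer cells of a type and less RNA per cell cannot be told apart.

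The difference between groups varied with how high a clone stood against its host. In the long hosts, 6129 single-block clones met every other criterion at any level, of which 1588 stood at or above 0.1 of the host and so were not intron-like by the rule. The median log2 fold change was 0.37 for clones under 1% of the host, 0.44 from 1% to 2%, 0.40 from 2% to 5% and 0.32 from 5% to 10%. Above the threshold it was 0.25 from 10% to 20%, 0.08 from 20% to 50%, -0.16 from 50% to 100% and -0.19 for clones at or above their host. Of the 1588 clones at or above 10%, 177 (11.1%) were higher and 222 (14.0%) lower at an unadjusted p below 0.05. That compares with 8.38% and 6.74% of all rows tested. The median of the 1588 clones was 0.03. The medians thus passed the threshold of the rule without a step, as the plot by level shows.

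**Figure D3:**
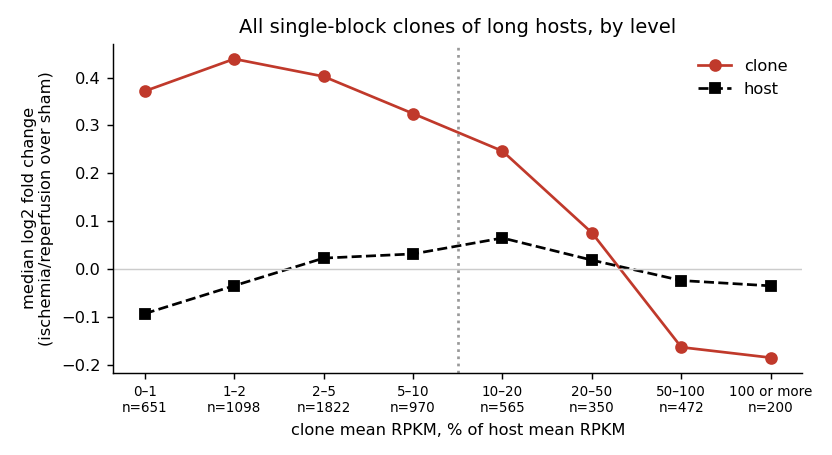
Median log2 fold change of ischemia/reperfusion over sham for all 6129 single-block clones of long hosts (red circles) and for their host rows (black squares), by the clone's mean level in percent of its host's mean level. The dotted line marks the limit of 10% under which a clone belongs to the set described here, and the clone medians go down from 0.44 at 1% to 2% to -0.19 at or above the host's level.

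The clones just inside the limit were fantom3_9530057B19 in Aff1, fantom3_D330013B18 in Mical3 and fantom3_9630020E20 in Ext1, at 9.98%, 9.96% and 9.95% of the host, with log2 fold changes of 0.96, 0.84 and 0.81. Just outside it were fantom3_3110027N22 in Zeb2, fantom3_C130093P16 in Pdzrn4 and fantom3_A630006G22 in Kcnq5, all at 10.05% of the host, with log2 fold changes of 0.26, 0.01 and -0.06.

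The position inside the host separated the ischemia/reperfusion libraries from each other. In ischemia/reperfusion replicate 1 the median log2 of the clone's CPM over its sham mean was 0.38 for the 250 clones within 10 kb of the host start, 0.26 for the 1345 clones at 30 to 100 kb, 0.07 for the 817 clones at 200 to 400 kb and 0.04 for the 196 clones at 800 kb or more. In ischemia/reperfusion replicate 2 the same medians were 0.44, 0.57, 0.51 and 0.53. In ischemia/reperfusion replicate 3 they were 0.45, 0.51, 0.35 and 0.28. The sham libraries stayed between -0.11 and 0.14 in every bin of distance. Close to the host start the 3 ischemia/reperfusion libraries lay together above sham, and far from it replicate 1 lay among the sham libraries.

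The span of the host showed the same separation. For hosts of 100 to 150 kb the median was 0.32, 0.56 and 0.48 in ischemia/reperfusion replicates 1, 2 and 3, and for hosts of 500 to 1000 kb it was 0.06, 0.47 and 0.30. In edgeR, 183 of 948 clones (19.3%) in hosts of 100 to 150 kb were higher at an unadjusted p below 0.05. In hosts of 1000 kb or more 49 of 470 (10.4%) were, which is nearer to the 8.38% of all rows tested. By relative position the median log2 fold change was between 0.36 and 0.44 in each of 7 bins from the start to the end of the host, while the libraries separated there too. In ischemia/reperfusion replicates 1, 2 and 3 the median against the sham mean was 0.34, 0.45 and 0.42 in the first 10% of the host and 0.15, 0.62 and 0.47 from 60% to 80%. Spearman's correlation of the log2 fold change over the 4541 clones was -0.14 with the host's span, -0.10 with the distance from its start and 0.0017 with the relative position. Longer hosts have clones at greater distances, so span and distance share these clones. The separation of the 3 libraries is drawn in the plot by distance.

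**Figure D4:**
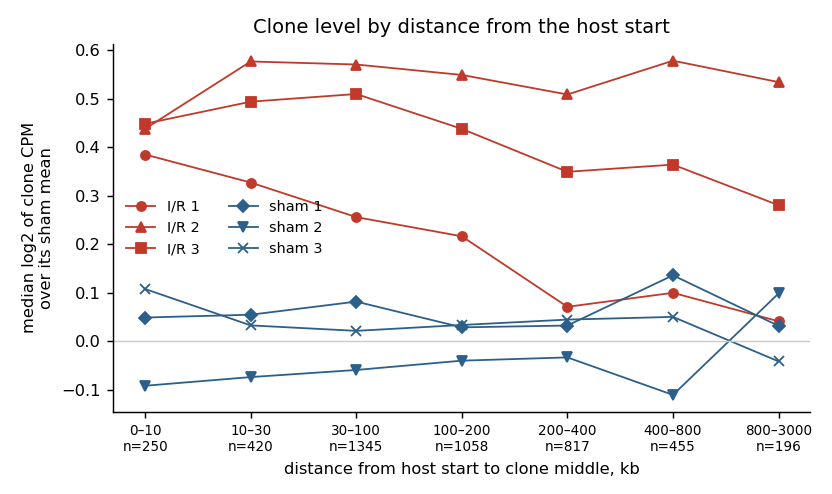
Median over clones of the log2 of the clone's CPM over its mean in the 3 sham libraries, by the distance from the host start to the middle of the clone in kb, with 1 line per library (red for ischemia/reperfusion, blue for sham) and the number of clones under each bin. The lines of the ischemia/reperfusion libraries lie between 0.38 and 0.45 in the first bin and between 0.04 and 0.53 in the last.

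The clones were also grouped by the role of the host. Each share called higher at an unadjusted p below 0.05 in edgeR is read against the 8.38% of all rows tested. Counts of clones with a log2 fold change above 0 are read against 53.5% of all rows tested. Among hosts for RNA-binding proteins and splicing regulators, 103 of 123 clones had a log2 fold change above 0, with a median of 0.46, and 26 (21.1%) were higher and 0 lower at an unadjusted p below 0.05, while the median of the 23 hosts was 0.016. The clone with the smallest p was fantom3_7030412E16 in Rbfox1, a splicing regulator of neurons (chromosome 16, 6287824 to 6290067, 404 kb from the host start). It had 0.477, 0.995 and 0.961 RPKM in the ischemia/reperfusion libraries, against 0.242, 0.324 and 0.219 RPKM in the sham libraries. The groups did not overlap, and the log2 fold change was 1.57 with an SE of 0.33 and an adjusted p of 0.150. Rbfox1 itself had 31.3, 38.1 and 28.5 RPKM in the ischemia/reperfusion libraries, against 38.1, 35.5 and 35.9 RPKM in the sham libraries, so the ratio was 2.50% ± 0.929 in ischemia/reperfusion and 0.719% ± 0.168 in sham (SD, n = 3 each).

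In the same role group, fantom3_A430103A02 in Mbnl2, a muscleblind splicing factor, had the highest count. It had 340, 328 and 340 reads in the ischemia/reperfusion libraries, against 237, 235 and 283 reads in the sham libraries, and a log2 fold change of 0.42. Clone fantom3_I1C0045D09 in Stau2, a Staufen protein that binds double-stranded RNA and takes part in dendritic RNA transport, was among those with the smallest p for the ratio. Its ratio was 6.26%, 5.93% and 6.73% in the ischemia/reperfusion libraries, against 3.60%, 4.05% and 3.21% in the sham libraries. The clone with the miR-6402 hairpin in Elavl2 had 168, 178 and 200 reads in the ischemia/reperfusion libraries, against 194, 145 and 214 reads in the sham libraries, and the groups overlapped. It was chosen for its hairpin after its values were seen.

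Hosts for phosphodiesterases, kinases and small G protein signalling had 372 clones, of which 316 had a log2 fold change above 0, with a median of 0.49 and 79 (21.2%) higher and 2 lower at an unadjusted p below 0.05. Clone fantom3_C130039C10 in Srgap3, a GTPase-activating protein, lay 3.46 kb from the host start and had the smallest p of the group. It had 121, 144 and 146 reads in the ischemia/reperfusion libraries, against 58, 63 and 84 reads in the sham libraries, a log2 fold change of 1.01 with an SE of 0.22 and an adjusted p of 0.150 in edgeR. The clone with the highest count, fantom3_K230042O17 in Ppp3ca, which encodes a catalytic subunit of calcineurin, had 5.88, 7.92 and 5.19 RPKM in the ischemia/reperfusion libraries, against 6.21, 6.31 and 5.72 RPKM in the sham libraries. Those groups overlapped.

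Clone fantom3_D430011D22 in Sik3, a salt-inducible kinase, had 0.510, 0.833 and 0.988 RPKM in the ischemia/reperfusion libraries, against 0.354, 0.309 and 0.233 RPKM in the sham libraries, and a log2 fold change of 1.31. The Pde4b clone whose start window is printed above holds a RefSeq start of this phosphodiesterase gene for cyclic AMP. It had 97, 72 and 100 reads in the ischemia/reperfusion libraries, against 45, 52 and 36 reads in the sham libraries, with no overlap. Its log2 fold change was 1.01 with an SE of 0.25 and an adjusted p of 0.159 in edgeR, while the whole Pde4b row had a log2 fold change of 0.03. Of the 11 clones with a RefSeq start, 9 (81.8%) had a log2 fold change above 0. At an unadjusted p below 0.05, 2 (18.2%) were higher, those in Pde4b and Lrrc1. These shares were close to the 79.4% and 16.7% of all 4541 clones. Over all rows tested they were 53.5% and 8.38%. The clone in Lrrc1 had 60, 20 and 19 reads in the ischemia/reperfusion libraries, against 14, 10 and 17 reads in the sham libraries. The clones of the other 3 printed windows had log2 fold changes of 0.66 in Mgat4c, 0.65 in Mllt3 and 0.14 in Rabgap1, none of them at an unadjusted p below 0.05.

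Hosts for the cytoskeleton, ankyrins and transport had 163 clones, of which 134 had a log2 fold change above 0, with a median of 0.45 and 38 (23.3%) higher and 0 lower at an unadjusted p below 0.05. Clone fantom3_9630037A12 in Dst, which encodes the cytoskeletal linker dystonin, had only 18, 13 and 11 reads in the ischemia/reperfusion libraries, against 1, 2 and 2 reads in the sham libraries. Clone fantom3_B930097N15 in Kif5c, a kinesin heavy chain, had the highest count of the group. It had 9.82, 12.7 and 11.1 RPKM in the ischemia/reperfusion libraries, against 9.66, 9.91 and 10.9 RPKM in the sham libraries, and the groups overlapped.

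Among hosts for transcription factors and chromatin regulators, 322 of 384 clones had a log2 fold change above 0, with a median of 0.41 and 66 (17.2%) higher and 1 lower at an unadjusted p below 0.05. Clone fantom3_B130040E21 in Rora, a nuclear receptor, lay 642 kb from the host start. It had 0.337, 0.539 and 0.741 RPKM in the ischemia/reperfusion libraries, against 0.222, 0.189 and 0.212 RPKM in the sham libraries. The ratio to Rora was 2.83% ± 0.400 in ischemia/reperfusion and 1.21% ± 0.0960 in sham (SD, n = 3 each), a log2 difference of 1.21 with an SE of 0.17 and an adjusted p of 0.133 in limma. Clone fantom3_B930076H02 in Nsd1, a histone methyltransferase, had the highest count of the group and had 311, 290 and 338 reads in the ischemia/reperfusion libraries, against 288, 216 and 312 reads in the sham libraries.

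Hosts for ion channels had 145 clones, of which 115 had a log2 fold change above 0, with a median of 0.34 and 24 (16.6%) higher and 0 lower at an unadjusted p below 0.05. Clone fantom3_C230081N01 in Dpp6, an auxiliary subunit of A-type potassium channels, had 1.07, 0.292 and 0.730 RPKM in the ischemia/reperfusion libraries, against 0.135, 0.170 and 0.108 RPKM in the sham libraries. Its log2 fold change was 2.26 with an SE of 0.45, while Dpp6 itself had -0.09. Clone fantom3_C130007P11 in Kcnma1, the pore-forming subunit of the large-conductance calcium-activated potassium channel, had a ratio of 10.3%, 9.70% and 11.4% in the ischemia/reperfusion libraries, against 6.16%, 4.89% and 5.63% in the sham libraries. Clone fantom3_D030038G04 in Itpr1, a calcium release channel gated by inositol trisphosphate, had the highest count of the group. It had 3.51, 3.99 and 2.88 RPKM in the ischemia/reperfusion libraries, against 2.86, 2.59 and 2.95 RPKM in the sham libraries, and the groups overlapped.

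Clones in hosts for synaptic molecules and axon guidance had medians of 0.19 to 0.24. Synaptic scaffolds and vesicle release had 156 of 196 clones with a log2 fold change above 0, a median of 0.24, and 22 (11.2%) higher and 1 lower at an unadjusted p below 0.05. Neurexins, neuroligins and synaptic adhesion molecules had 216 of 305, a median of 0.19, and 35 (11.5%) higher and 1 lower. Glutamate and GABA receptors had 59 of 87, a median of 0.20, and 6 (6.90%) higher and 1 lower. Axon guidance receptors and ligands had 76 of 113, a median of 0.23, and 8 (7.08%) higher and 0 lower. For the receptors and for axon guidance the share higher was below the 8.38% of all rows. Differences between role groups were not tested.

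Clone fantom3_F830037B22 in Magi2, a synaptic scaffold, had 70, 103 and 77 reads in the ischemia/reperfusion libraries, against 44, 46 and 37 reads in the sham libraries. Clone fantom3_D130070D22 in Cadps, which primes dense-core vesicles for release, had the highest count among scaffold and release hosts, with 417, 662 and 625 reads in the ischemia/reperfusion libraries, against 435, 364 and 472 reads in the sham libraries. Its groups overlapped through ischemia/reperfusion replicate 1. Clone fantom3_B230397F05 in Tenm4, a teneurin adhesion molecule, had 0.495, 0.742 and 0.745 RPKM in the ischemia/reperfusion libraries, against 0.303, 0.195 and 0.254 RPKM in the sham libraries. The ratio to Tenm4 was 5.79% ± 0.596 in ischemia/reperfusion and 2.25% ± 0.471 in sham (SD, n = 3 each). Clone fantom3_D130077C17 in Bai3, the file's symbol for the adhesion receptor gene Adgrb3, had 412, 376 and 329 reads in the ischemia/reperfusion libraries, against 499, 326 and 408 reads in the sham libraries.

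Clone fantom3_C630020C24 in Gria2, an AMPA receptor subunit, had both the smallest p and the highest count among receptor hosts (chromosome 3, 80717774 to 80721757). It had 809, 826 and 739 reads in the ischemia/reperfusion libraries, against 590, 626 and 583 reads in the sham libraries, and the groups did not overlap. Its log2 fold change was 0.40 with an SE of 0.12 and an adjusted p of 0.194 in edgeR. Gria2 itself had 70.7, 81.1 and 56.4 RPKM in the ischemia/reperfusion libraries, against 72.5, 70.2 and 70.9 RPKM in the sham libraries. Clone fantom3_D930007B09 in Epha3, an ephrin receptor, had 19, 24 and 21 reads in the ischemia/reperfusion libraries, against 1, 6 and 6 reads in the sham libraries. Clone fantom3_D230019K07 in Robo2, a Slit receptor, had 154, 155 and 107 reads in the ischemia/reperfusion libraries, against 136, 137 and 183 reads in the sham libraries.

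Hosts with immunoglobulin, contactin or cadherin adhesion domains had the lowest share of clones with a log2 fold change above 0 among the 12 groups. That held for 136 of their 234 clones (58.1%), close to the 53.5% of all rows tested, with a median of 0.09. At an unadjusted p below 0.05, 31 (13.2%) were higher and 7 lower. The median of the 33 hosts was -0.088. Clone fantom3_9630014E16 in Kirrel3, an immunoglobulin adhesion molecule, had 81, 127 and 90 reads in the ischemia/reperfusion libraries, against 53, 43 and 54 reads in the sham libraries. Clone fantom3_C230039J04 in Pcdh9, a non-clustered protocadherin, had the highest count of the group, with 519, 522 and 537 reads in the ischemia/reperfusion libraries, against 662, 533 and 671 reads in the sham libraries. Its log2 fold change was -0.23, and the groups overlapped in reads. Among 69 clones in hosts for glial transporters, myelin and glial signalling, 50 had a log2 fold change above 0, with a median of 0.25 and 6 (8.70%) higher, close to the 8.38% of all rows, and 0 lower. The smallest p there was that of fantom3_6720450A21 in Pitpnc1, a phosphatidylinositol transfer protein, with 10, 24 and 40 reads in the ischemia/reperfusion libraries, against 5, 9 and 1 reads in the sham libraries. The 856 hosts in no listed role had 2350 clones, of which 1924 had a log2 fold change above 0, with a median of 0.45 and 419 (17.8%) higher and 4 lower.

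Among the hosts in no listed role were several of the clones with the smallest p. Clone fantom3_D230045K05 in Numb, an endocytic adaptor that antagonizes Notch, had 140, 136 and 108 reads in the ischemia/reperfusion libraries, against 51, 36 and 57 reads in the sham libraries. Its log2 fold change was 1.42 with an SE of 0.24 and an adjusted p of 0.123 in edgeR, and Numb itself had 0.50. Clone fantom3_I1C0030I04 in Ttc7b, part of a complex that anchors a phosphatidylinositol kinase at the plasma membrane, had 70, 74 and 78 reads in the ischemia/reperfusion libraries, against 26, 27 and 38 reads in the sham libraries, while Ttc7b had a log2 fold change of 0.01. Clone fantom3_C030012D19 in Rnf220, a ubiquitin ligase, had 10, 13 and 28 reads in the ischemia/reperfusion libraries, against 1, 0 and 0 reads in the sham libraries, too few for a fold. Clone fantom3_B230040O03 in Fam155a, which encodes a subunit of the sodium leak channel complex, had a ratio of 7.36%, 9.07% and 9.18% in the ischemia/reperfusion libraries, against 4.75%, 4.75% and 4.76% in the sham libraries. Clone fantom3_4931410M24 in Fam49b had a ratio of 7.52%, 7.54% and 7.60% in the ischemia/reperfusion libraries, against 5.67%, 5.38% and 5.88% in the sham libraries. There the clone's own log2 fold change was 0.15 and the host's was -0.27.

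Apart from the Gria2 clone, the 6 clones with the highest counts had small log2 fold changes. Clone fantom3_6330416G21 in Mbp, the myelin basic protein gene, had 26.5, 34.1 and 61.1 RPKM in the ischemia/reperfusion libraries, against 37.6, 30.7 and 39.0 RPKM in the sham libraries. It stayed at 8.97%, 9.25% and 9.18% of Mbp in the ischemia/reperfusion libraries, against 9.96%, 9.02% and 9.94% in the sham libraries. The 2 clones in App, the amyloid precursor protein gene, had log2 fold changes of -0.01 (fantom3_D130092M22) and 0.03 (fantom3_E030013M08). Clone fantom3_9930025K22 in Dnajc6, which encodes the clathrin uncoating cochaperone auxilin, had -0.04. Above 367 reads, the top 20% of summed counts, 182 of 906 clones (20.1%) were higher and 8 lower at an unadjusted p below 0.05. That compares with 8.38% and 6.74% of all rows tested. The median log2 fold change of these 906 clones was 0.24, against 0.45 for the 920 clones with 72 reads or fewer.

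Few clones were lower. The 8 with the smallest p among the 17 lower ones at an unadjusted p below 0.05 lay in Fchsd2, Ccdc85a, Pcdh9, Fam189a1, Zbtb20, Mdga2, Pcdh7 and Grm8. Clone fantom3_A130040C09 in Fchsd2, a protein of actin assembly and endocytosis, had 2, 3 and 2 reads in the ischemia/reperfusion libraries, against 16, 8 and 6 reads in the sham libraries. Clone fantom3_D730024J22 in Pcdh9 rested on more reads, 269, 219 and 228 in the ischemia/reperfusion libraries, against 345, 267 and 356 in the sham libraries, with a log2 fold change of -0.43. Clone fantom3_5330404B03 in Zbtb20, a zinc finger repressor of transcription, had 85, 151 and 142 reads in the ischemia/reperfusion libraries, against 197, 168 and 217 reads in the sham libraries. Its ratio to the host was 4.59%, 4.10% and 4.20% in the ischemia/reperfusion libraries, against 10.4%, 8.45% and 8.57% in the sham libraries. That log2 difference of -1.08, with an SE of 0.12, had the smallest p of the 4541 clones in the limma fit of the ratio, with an adjusted p of 0.109, and Zbtb20 itself had a log2 fold change of 0.49.

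The other 5 lower clones had log2 fold changes of -0.73 in Ccdc85a (fantom3_C130073H09), -0.61 in Fam189a1 (fantom3_D430020G16), -1.41 in Mdga2 (fantom3_B930004G13), -0.91 in Pcdh7 (fantom3_D130049P13) and -1.14 in Grm8 (fantom3_A430101M24). Mdga2 is a membrane-anchored protein that binds neuroligins, and Grm8 is a metabotropic glutamate receptor. The 5 clones with the smallest p among those with a lower ratio lay in Zbtb20, Fchsd2, Srgap2, Ptprd and Grm8. Clone fantom3_E630011N19 in Srgap2, a GTPase-activating protein of the Slit and Robo pathway, had a ratio of 2.37%, 1.62% and 2.53% in the ischemia/reperfusion libraries, against 5.27%, 4.98% and 4.47% in the sham libraries. Clone fantom3_9830116N24 in Ptprd, a receptor tyrosine phosphatase of synaptic adhesion, had 1.67%, 1.39% and 1.36% in the ischemia/reperfusion libraries, against 2.13%, 2.27% and 2.62% in the sham libraries.

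Hosts with several clones were also described as wholes. Of all rows tested, 53.5% had a log2 fold change above 0. The median log2 fold change of a host's clones was positive in 1126 of 1296 hosts, and in 52 of the 64 hosts with 10 or more clones, of which 19 had a log2 fold change above 0 of the host row itself. All 21 clones of Rbfox1 were positive, with a median of 0.46, as were all 18 of Rora (0.75), all 14 of Tenm3 (0.82), all 11 of Rere, a corepressor (0.86), and all 10 of Pitpnc1 (1.01). The host rows had -0.22 in Rbfox1, 0.06 in Rora, -0.15 in Tenm3, -0.13 in Rere and 0.19 in Pitpnc1. Pooled clones of Rbfox1 had 0.767, 1.23 and 1.12 RPKM in the ischemia/reperfusion libraries, against 0.842, 0.686 and 0.691 RPKM in the sham libraries. Those of Rora had 0.434, 1.03 and 0.907 RPKM, against 0.485, 0.351 and 0.437 RPKM in sham. In both hosts ischemia/reperfusion replicate 1 lay within the range of sham. Pooled clones of Pitpnc1 had 0.125, 0.231 and 0.226 RPKM, against 0.0857, 0.106 and 0.0983 RPKM in sham, without overlap. Auts2, a regulator of neuronal development, had 17 of 18 positive clones with a median of 0.90. At the other end, Cadm2, a synaptic cell adhesion molecule, had 8 of 23 positive clones with a median of -0.22, Negr1 3 of 10 (-0.18), Cntn5 5 of 13 (-0.16), Robo2 2 of 10 (-0.15) and Lsamp 3 of 11 (-0.12). Clones of a host can stem from the same primary transcript and are not independent. These hosts were picked by their place in the order, so their values are a description.

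**Figure D5:**
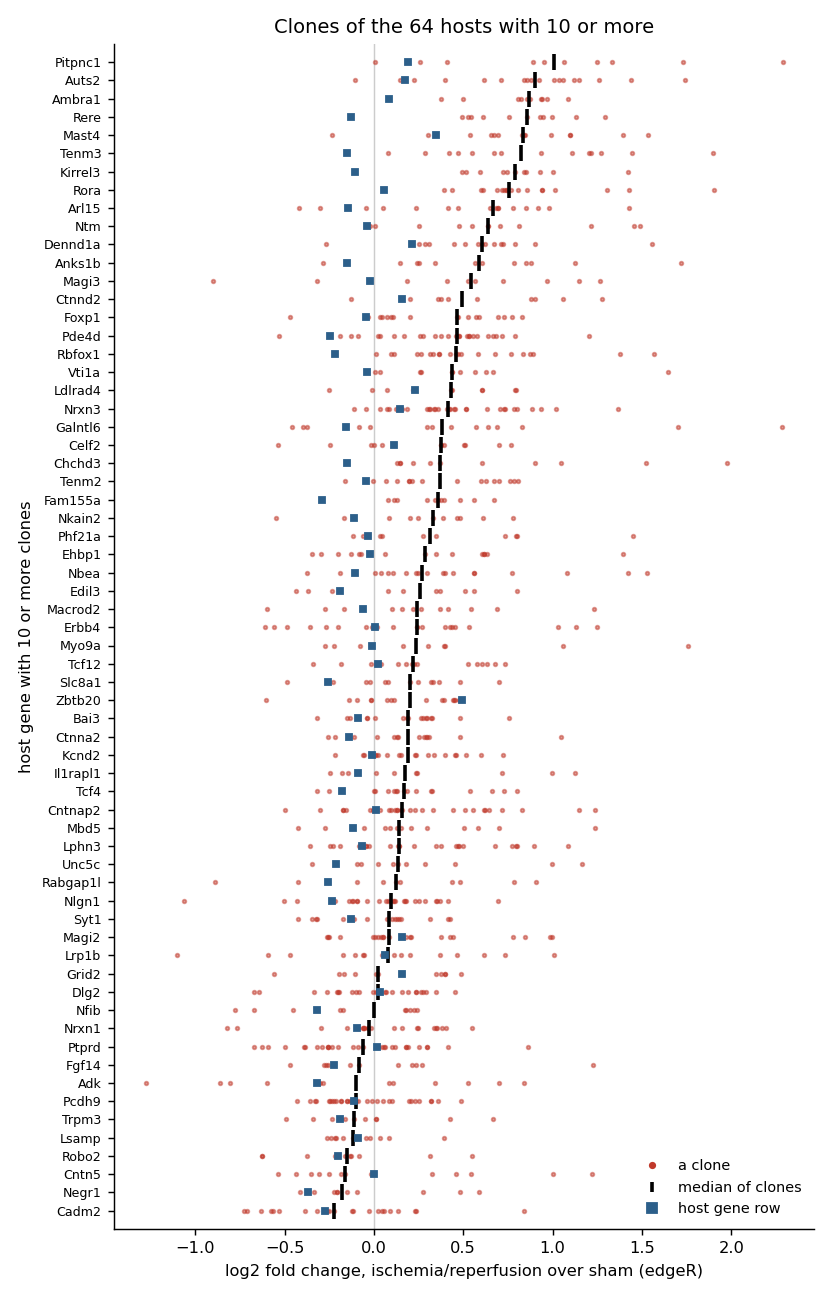
Log2 fold change of ischemia/reperfusion over sham (edgeR) of each clone in the 64 hosts with 10 or more clones, ordered by the median of their clones, with the median as a black bar and the host gene row as a blue square. The medians run from -0.22 in Cadm2 to 1.01 in Pitpnc1, and 52 of 64 are above 0.

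The 6 hosts with most clones covered both patterns. Nrxn3, a presynaptic neurexin, had 32 clones at 26 loci. Of these clones 30 were positive, with a median of 0.42. At an unadjusted p below 0.05, 9 were higher and 0 lower, against 8.38% and 6.74% of all rows tested. Nrxn3's clones share a host and some overlap, so these counts are a description. Reads of its clones per length were 1.01, 0.803 and 0.667 RPKM in the ischemia/reperfusion libraries, against 0.577, 0.614 and 0.603 RPKM in the sham libraries, and replicate 1 was the highest. Pcdh9 had 31 clones, 12 of them positive, with a median of -0.10. Its clones had 1.24, 1.67 and 1.68 RPKM in the ischemia/reperfusion libraries, against 1.66, 1.46 and 1.66 RPKM in the sham libraries. Ptprd had 31 clones, 15 of them positive, with a median of -0.06.

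Cntnap2, a neurexin-like protein that clusters potassium channels along axons, had 29 clones, 22 of them positive, with a median of 0.16. Nlgn1, a postsynaptic partner of neurexins, had 28 clones, 18 of them positive, with a median of 0.10. Pde4d, another phosphodiesterase for cyclic AMP, had 28 clones at 22 loci, 24 of them positive, with a median of 0.46 and none at an unadjusted p below 0.05. Its clones had 0.279, 0.322 and 0.337 RPKM in the ischemia/reperfusion libraries, against 0.257, 0.217 and 0.230 RPKM in the sham libraries, while Pde4d itself had 8.70, 9.67 and 9.34 RPKM in the ischemia/reperfusion libraries, against 10.7, 10.9 and 9.94 RPKM in the sham libraries. The groups did not overlap for either, and the directions were opposite. The host's log2 fold change was -0.25 with an adjusted p of 0.274 in edgeR. Within Nrxn3 the 7 clones in the first part of the span, before its middle, had a median of 0.73 and the 25 behind it a median of 0.34. Within Pde4d the 3 clones before the middle had a median of -0.19 and the 25 behind it a median of 0.46.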

How the data were processed

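Per the labels' protocols, ribosomal RNA was removed from total brain RNA and read pairs were sequenced from 3 ischemia/reperfusion and 3 sham libraries. The build is mm10, per the submitters' processing notes. No source used here names the aligner, the counting tool, the strand setting or how the authors made the clone rows. The authors deposited whole-number counts and RPKM values per row, and a table of their own comparison with a log2 fold change, p-values and q-values per row, which are used only where that table is named.

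Clones, hosts and lists were chosen with earlier results of these data known. Clones were joined to gene rows by position and strand (at least 1 shared base counts as overlap). Counts were tested two-sided with edgeR 4.0.16 (R 4.3.3; TMM factors, robust quasi-likelihood) over the 43486 rows with a summed count of at least 30, with Benjamini-Hochberg adjustment, and the ratio with limma 3.58.1 (trend, robust) over 16399 pairs. Both were also run on simulated counts in which a small part of the clones was raised. A shift of most clones, as described here, was not simulated, so the simulation cannot speak to it. Unadjusted counts are descriptions, read against all rows where that share is given. In a library 3 counts equal 0.0604 to 0.0660 CPM, a limit that takes only counting error into account.

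Named clones were the 8 higher and 8 lower with the smallest edgeR p, the 5 higher and 5 lower with the smallest limma p for the ratio, the 6 with the highest count, for each host role the smallest p and the highest count, and the 3 nearest to the 10% limit on either side. Clones with a RefSeq start or a miRNA hairpin and the hosts at the ends of the order were added after seeing values. Alternatives were RLE factors, filterByExpr, no filter, DESeq2 1.42.0, limma-voom, a replicate block, each library left out, other pseudocounts, an offset fit and other limits of the rule.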

Additional observations from a re-analysis of the deposited data

How the results depend on the processing

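With DESeq2 33 clones passed the adjusted threshold, against 1.04% higher and 0.738% lower of all rows with an adjusted p. With no filter on low counts 4 clones passed edgeR's adjusted threshold. With each library left out in turn between 0 and 105 clones passed it, against 0% to 2.43% of all rows. Leaving out a library gave 449 to 1033 higher and 9 to 29 lower clones at an unadjusted p under 0.05. All rows had 5.74% to 10.6% higher and 3.33% to 9.72% lower. For the ratio 570 to 983 clones were higher and 15 to 44 lower, against 9.37% to 15.0% and 2.55% to 7.67% of all pairs. Whether the replicate numbers pair the samples is not stated. The correlations of same-numbered libraries, each taken against its group mean, were -0.115, 0.0513 and 0.211 over 28860 rows. Those of libraries with different numbers ran from -0.213 to 0.184. With 3 libraries in a group these values cannot settle whether the samples were paired. With the replicate block 642 clones were higher, 11 lower and 0 past the adjusted threshold, and for the ratio 771, 19 and 0. The shares of all rows and pairs under the block, and of all rows with no filter, were not computed. Those counts therefore cannot be read against all rows. The median log2 fold change was 0.31 to 0.46 under every alternative run, and the median log2 difference of the ratio 0.36 to 0.46. The cause of the moved counts was not tested.

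No clone passed the adjusted threshold in the main fits, so none could drop below it. Of 718 values recomputed for named clones, 668 kept their direction and stayed short of the threshold. Another 26 passed it newly (13 of them without ischemia/reperfusion replicate 1), and 24 values, of some clones, changed sign. Their log2 fold changes with a library left out were -0.21 to 0.13 in Ppp3ca (fantom3_K230042O17, also 0.0051 with filterByExpr), -0.10 to 0.10 (fantom3_D130092M22) and -0.095 to 0.12 (fantom3_E030013M08) in App, -0.17 to 0.054 in Dnajc6, -0.089 to 1.29 in Mctp1, -0.052 to 0.41 in Ppp2r3a, -0.14 to 0.10 in Elavl2, -0.031 to 0.17 in Kif5c, -0.13 to 0.34 in Rabgap1, -0.29 to 0.34 in Mbp, -0.24 to 0.015 in Robo2 and -0.26 to 0.012 in Bai3. The few reads per clone limit what a single clone can show.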

Other observations

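Clone rows with no gene row on their own strand stood nearer to 0 than the intron-like clones. The 2810 clones that overlapped a gene row on the other strand alone had a median of 0.08 for the log2 fold change in edgeR. At an unadjusted p below 0.05, 231 (8.22%) were higher and 78 (2.78%) lower, against 8.38% and 6.74% of all rows tested. The 4132 clones with no gene row on either strand had a median of -0.01, with 218 (5.28%) higher and 273 (6.61%) lower. Clones of the same kind in hosts under 100 kb were close to the intron-like clones of long hosts, with a median of 0.35. Of these 2623 clones 79.5% were positive, 433 (16.5%) were higher and 8 (0.305%) lower. In the fit of the ratio 83.0% were positive and 568 (21.7%) higher, against 80.1% and 19.1% of the intron-like clones of long hosts.

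In these shorter hosts the order of the ischemia/reperfusion libraries was not that of the longest hosts. For hosts under 20 kb (290 clones) the median log2 of the clone's CPM over its sham mean was 0.48, 0.17 and 0.08 in ischemia/reperfusion replicates 1, 2 and 3. For hosts of 60 to 100 kb (1057 clones) it was 0.34, 0.46 and 0.37. For hosts of 1000 kb or more (470 clones) it was 0.11, 0.46 and 0.23. Replicate 1 was thus the highest of the group in the shortest hosts and the lowest in the longest, and what sets it apart was not tested.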
